A study of Mus musculus with 13 samples.

Results

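Open chromatin was examined at 8 transcription factor genes of the ventral forebrain and its interneurons in cultured mouse oligodendrocyte progenitor cells (OPCs). The genes were Dlx1, Dlx2, Dlx5, Dlx6, Gsx1, Nkx2-1, Lhx6 and Lhx8, a fixed list of 8 among the 55536 genes of the GENCODE M21 annotation, which were listed by name, with earlier results of these data known. They lie in 6 loci, because Dlx1 and Dlx2, and likewise Dlx5 and Dlx6, are neighbours. ATAC-seq, in which the Tn5 transposase cuts accessible DNA, had been run on 13 libraries. The libraries comprised 3 from control brainstem, 3 from K27M brainstem, 3 from control dorsal telencephalon and 4 from K27M dorsal telencephalon. All came from AMGFAP-Cre;K27M litters dissected at postnatal day 5 to 7, a cross that the study describes as hGFAP-Cre, active in neural progenitors from mid-gestation, with a conditional H3.3 K27M oncohistone at the endogenous H3-3a gene. Controls came from the same litters. Pups were pooled by region and genotype, PDGFRα-positive cells were immunopanned and kept proliferating, and each library is named here by its culture number (41, 51, 59 or 61). The telencephalic tissue, called cortex in the sample titles, was cortex, corpus callosum and hippocampus. It thus excluded the ganglionic eminences, where these factors act in the embryonic forebrain.

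In the embryo, Gsx1 and its relative Gsx2 mark progenitors of the ganglionic eminences, the ventral swellings of the forebrain that produce GABAergic neurons and early waves of OPCs. Dlx1 and Dlx2 act next and drive the neuronal fate of those progenitors at the expense of the oligodendrocyte fate, and Dlx5 and Dlx6 follow as the cells differentiate. Nkx2-1 specifies the medial ganglionic eminence and switches on the LIM-homeodomain genes Lhx6, needed for cortical interneuron migration and identity, and Lhx8, which acts in cholinergic and other ventral neurons. Genes of this kind often carry CpG-rich promoters that are repressed by Polycomb outside their own lineage, and the K27M histone inhibits the Polycomb enzyme.

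The 8 promoters differed widely in how often a peak was called. The promoter of a gene was taken as the windows that reach 2 kb before and 1 kb past each of its annotated starts, and a gene was counted in a library when at least 1 called peak touched them. A gene without a call may be open below the detection limit of that library, since read depth is unknown. Dlx2 and Gsx1 had a promoter peak in all 13 libraries, Dlx1 and Dlx6 in 12, Lhx6 in 7, Lhx8 in 6, Dlx5 in 2 and Nkx2-1 in 1. Of the 22028 protein-coding genes, 41.8% were called in every library, 27.3% in 1 to 12 and 30.8% never. Thus 6 of the 8 factors lay in the intermediate range, and none of the 8 was without a call in every library.

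**Figure D1:**
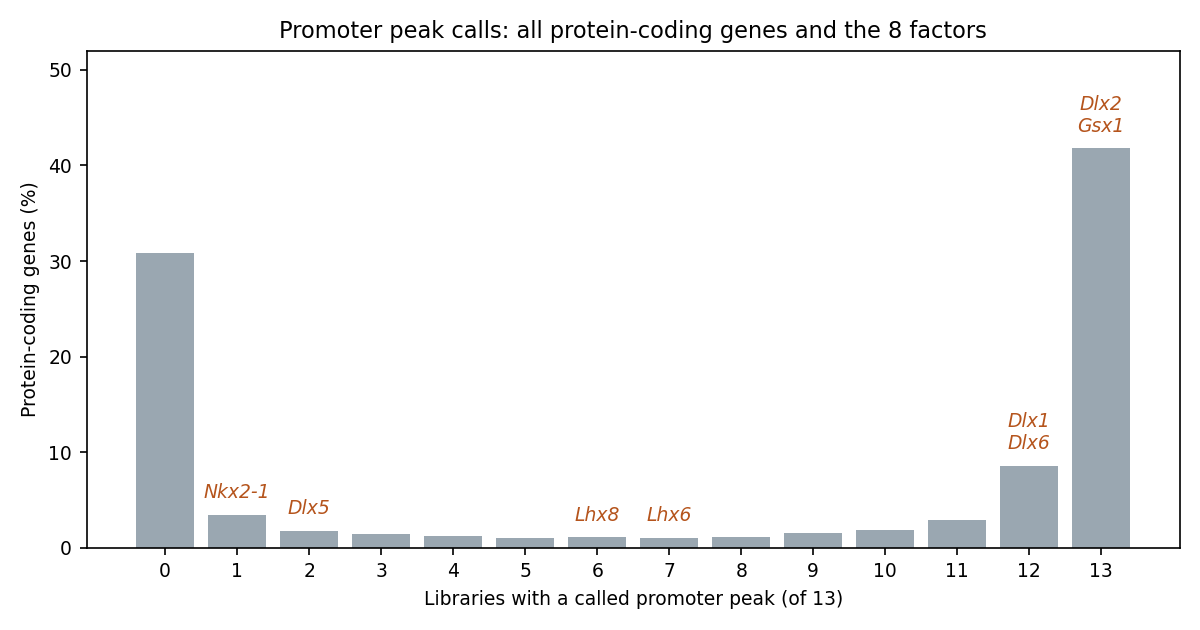
Share of protein-coding genes (y axis, percent of 22028) by the number of libraries in which a promoter peak was called (x axis, 0 to 13), with the 8 factors written above the bar they fall in. Dlx2 and Gsx1 fall in the tall bar at 13 libraries, Dlx1 and Dlx6 at 12, and the other 4 in the low bars between 1 and 7.

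The promoter windows of these genes were rich in CpG. Over the whole promoter windows, averaged over the starts of a gene, the ratio of observed to expected CpG ranged from 0.469 for Dlx5 to 0.711 for Dlx2, against a median of 0.349 over protein-coding genes. Of the 4948 protein-coding genes whose ratio lay in that range, 71.3% were called in every library and 3.7% never, whereas 2 of the 8 factors, Dlx2 and Gsx1, were called in every library. The RefSeq promoter table (build GRCm38.p6, 300 bases around a start) held 8 promoters of 6 of the genes and none for Dlx5 and Dlx6. The sequences below are the starts in that table for the 2 genes called in every library and for Nkx2-1 and Lhx8, which were called less often. Calls were counted over all starts of a gene and do not describe these stretches alone. The single Nkx2-1 peak did not touch the stretch given here, and of the 6 Lhx8 peaks only that of K27M telencephalon 51 did. Each sequence runs 5′ to 3′ on the strand of its gene, and capitals mark CpG dinucleotides.
Dlx2, chr2:71546705-71547004, minus strand: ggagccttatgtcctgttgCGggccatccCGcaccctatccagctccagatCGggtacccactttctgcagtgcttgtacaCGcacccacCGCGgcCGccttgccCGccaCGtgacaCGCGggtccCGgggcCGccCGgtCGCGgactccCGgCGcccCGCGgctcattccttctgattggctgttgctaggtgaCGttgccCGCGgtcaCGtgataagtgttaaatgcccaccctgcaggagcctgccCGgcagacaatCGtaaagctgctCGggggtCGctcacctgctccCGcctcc
Gsx1, chr5:147188446-147188745, plus strand: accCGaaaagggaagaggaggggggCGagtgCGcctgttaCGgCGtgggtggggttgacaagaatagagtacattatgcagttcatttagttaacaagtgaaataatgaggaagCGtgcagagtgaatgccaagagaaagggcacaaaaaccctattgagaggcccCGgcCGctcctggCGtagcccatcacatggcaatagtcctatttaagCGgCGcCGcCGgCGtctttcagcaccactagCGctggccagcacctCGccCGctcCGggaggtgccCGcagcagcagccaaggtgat
Nkx2-1, chr12:56536859-56537158, minus strand: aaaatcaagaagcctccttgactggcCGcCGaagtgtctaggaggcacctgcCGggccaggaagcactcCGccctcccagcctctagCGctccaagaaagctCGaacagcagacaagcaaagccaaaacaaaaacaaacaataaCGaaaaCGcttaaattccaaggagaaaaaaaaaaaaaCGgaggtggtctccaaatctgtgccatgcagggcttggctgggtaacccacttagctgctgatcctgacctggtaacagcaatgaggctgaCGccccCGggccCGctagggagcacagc
Lhx8, chr3:154330511-154330810, minus strand: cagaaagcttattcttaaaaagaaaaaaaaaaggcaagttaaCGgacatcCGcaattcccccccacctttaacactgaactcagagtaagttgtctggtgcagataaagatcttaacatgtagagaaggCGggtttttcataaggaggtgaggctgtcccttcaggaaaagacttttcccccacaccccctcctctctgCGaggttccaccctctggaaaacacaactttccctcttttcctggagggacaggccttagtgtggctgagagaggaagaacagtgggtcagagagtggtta
These 300 bases held 29 CpG in Dlx2, 19 in Gsx1, 12 in Nkx2-1 and 4 in Lhx8. The Lhx8 stretch had an observed to expected ratio of 0.241 and was thus not CpG-rich, unlike its whole window.

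Short motifs were searched for on both strands, namely TAATTA, the core bound by many homeodomain proteins including the Dlx and Lhx families, CAGCTG, an E-box, CAAGTG, the core of Nkx2 proteins, and ACAAAG, the core of Sox proteins. Among the 8 RefSeq promoters of the factors, TAATTA was in 0, CAGCTG in 1 (Lhx6), CAAGTG in 1 (Gsx1) and ACAAAG in 1 (Lhx6). The corresponding shares of all 32851 promoters in the table were 5.29%, 16.3%, 13.6% and 18.7%. The counts in so few promoters are a description of these letters in these windows only.

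Where a peak was called, it was weak to middling for its library. Each peak carries a fold, its enrichment against local background, and this was also ranked within the list of its library, so that 0 is the weakest and 100 the strongest peak. Where a promoter held several peaks, the one of highest fold was used. The cultures are bulk samples, in which fewer open cells and less opening per cell cannot be told apart. Promoter folds of the 8 factors lay between 2.03 and 3.52. The highest percentile that any of them reached was 73.5, by Dlx1 in control telencephalon 51. For comparison, protein-coding genes called in all 13 libraries had a median percentile of 75.7, whereas Dlx2 averaged 34.1 and Gsx1 38.4. Only 6.08% and 7.83% of those genes, respectively, averaged lower.

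**Figure D2:**
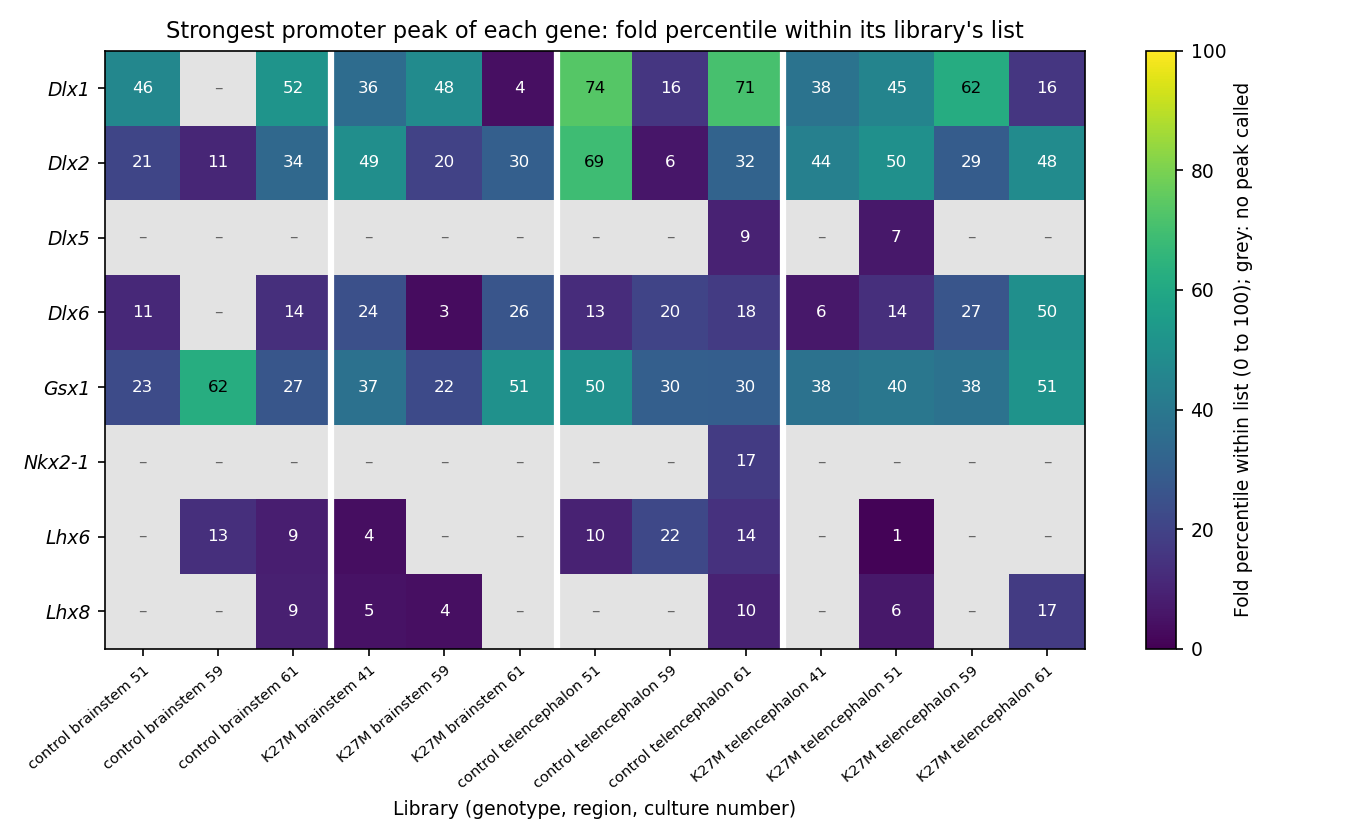
Fold percentile within its own peak list (colour, 0 to 100, with the rounded value printed) of the strongest promoter peak of each factor (rows) in each of the 13 libraries (columns, named by genotype, region and culture), grey where no peak was called. Dlx1, Dlx2, Dlx6 and Gsx1 fill nearly every column, whereas Lhx6, Lhx8, Dlx5 and Nkx2-1 are mostly grey and never exceed 21.8.

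Gsx1, the progenitor factor, had the most significant promoter peak of the 8. Its fold was 2.68, 3.18 and 2.70 in control brainstem 51, 59 and 61 and 2.60, 2.72 and 2.87 in K27M brainstem 41, 59 and 61. In telencephalon-derived OPCs it was 2.70, 2.68 and 2.71 in control 51, 59 and 61, and 2.67, 2.69, 2.85 and 2.81 in K27M 41, 51, 59 and 61. The 4 groups overlapped, and control brainstem 59 alone rose above 3. In 11 of 13 libraries the peak had a −log10 p of at least 6 and in 4 of at least 10. It remained in all 13 when every list was cut to its 16879 most significant peaks, the length of the shortest list. At this equal list length the shortest list itself, that of control telencephalon 59, was not shortened and kept all its peaks. The annotation gives Gsx1 (ENSMUSG00000053129.5, chr5:147188696-147190947, plus strand) a single start. Its promoter peak was broad, with a median width of 2813 bp and a range of 971 to 3529 bp.

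Dlx2 (ENSMUSG00000023391.8, chr2:71543408-71546754, minus strand) was called as often but less significantly. Its fold was 2.66, 2.58 and 2.80 in control brainstem 51, 59 and 61, and 2.83, 2.69 and 2.65 in K27M brainstem 41, 59 and 61. It was 3.00, 2.36 and 2.74 in control telencephalon 51, 59 and 61, and 2.74, 2.89, 2.77 and 2.77 in K27M telencephalon 41, 51, 59 and 61. The highest and the lowest value both came from control telencephalon, so that group spanned all the others. The −log10 p reached 6 in 6 libraries and 10 in none. At equal list length 5 libraries kept the peak, 1 of them from brainstem and 4 from telencephalon. Those 4 included control telencephalon 59, whose list was not shortened.

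Dlx1 (ENSMUSG00000041911.3, chr2:71528113-71533981, plus strand) was missing only from control brainstem 59. Its fold was 2.93 and 3.12 in control brainstem 51 and 61, and 2.57, 3.02 and 2.26 in K27M brainstem 41, 59 and 61. In telencephalon-derived OPCs it was 3.10, 2.53 and 3.52 in control 51, 59 and 61, and 2.68, 2.79, 3.17 and 2.41 in K27M 41, 51, 59 and 61. Dlx1 therefore varied most among the factors called in at least 12 libraries, with an SD of 0.366 over 12 libraries against 0.157 for Dlx2, 0.154 for Dlx6 and 0.148 for Gsx1. The peak also overlapped a promoter window of the antisense gene Dlx1as, which is transcribed across Dlx1, and ATAC-seq carries no strand, so the 2 genes cannot be told apart at this peak.

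Dlx6 (ENSMUSG00000029754.13, chr6:6863334-6868568, plus strand) was likewise missing only from control brainstem 59. Its folds were lower and tightly grouped, with a lowest value of 2.33, a median of 2.54 and a highest value of 2.79, and its median percentile was 15.6. No library gave it a −log10 p of 6. At equal list length it was left in 1 library, control telencephalon 59, whose list was not shortened. The Dlx6 peaks also overlapped promoter windows of the noncoding genes Dlx6os1 and Dlx6os2. Its partner Dlx5 (ENSMUSG00000029755.10, chr6:6877805-6882085, minus strand) had a promoter peak in control telencephalon 61 with a fold of 2.43 and in K27M telencephalon 51 with 2.26, and in none of 6 brainstem libraries. Those 2 lists were the 4th and 2nd longest of the 13, and Dlx5 was in none at equal list length.

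**Figure D3:**
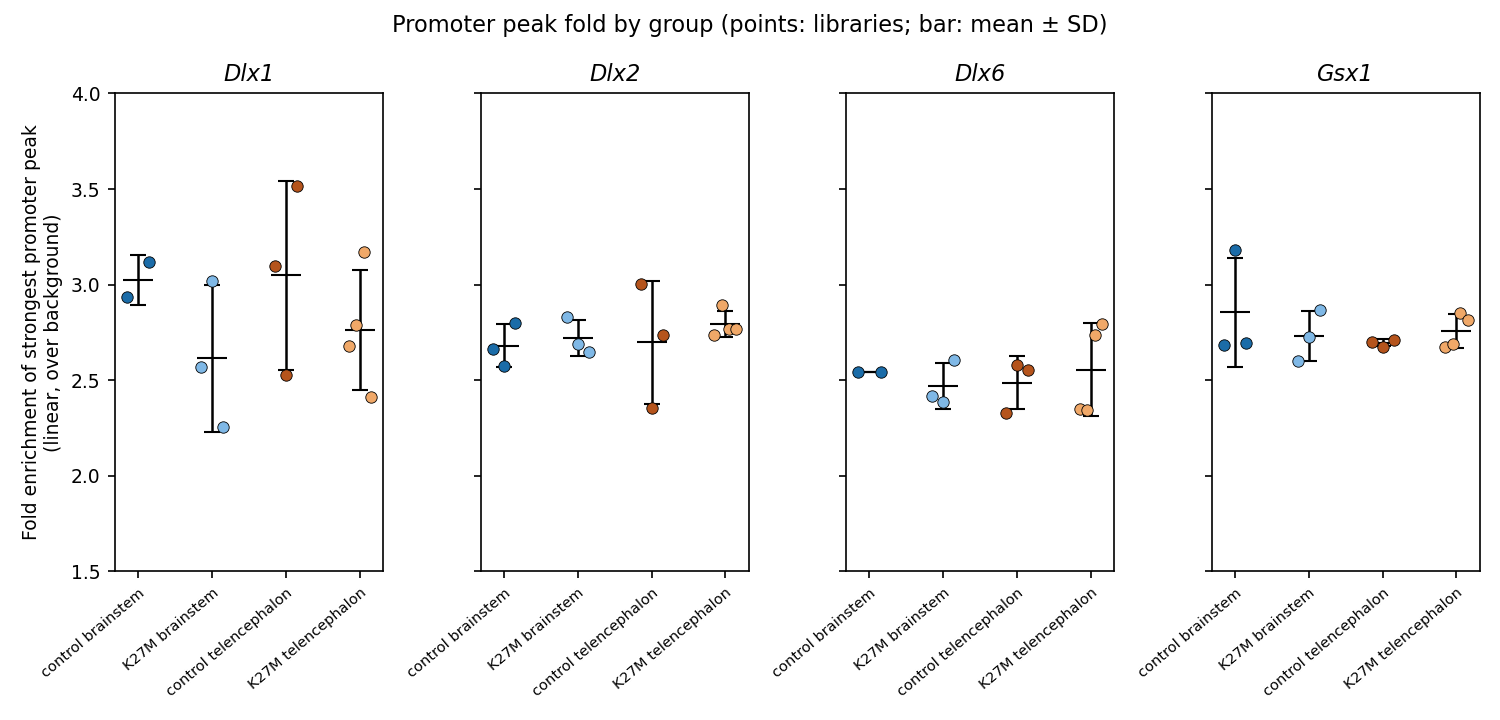
Fold enrichment over local background of the strongest promoter peak (y axis, linear scale starting at 1.5) of the 4 factors called in at least 12 libraries, by group (x axis). Points are libraries and bars show the mean and SD over the libraries of a group with a peak, and the groups overlap for every gene, with Dlx1 the most spread.

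Nkx2-1 (ENSMUSG00000001496.15, chr12:56531958-56536908, minus strand), the medial ganglionic eminence determinant, was the factor called least often. Its single promoter peak was in control telencephalon 61, with a fold of 2.55, a width of 256 bp and a percentile of 17.4, and it lay in an intron. The whole window of the gene and 50 kb on either side held 4 peaks. They came from 4 different libraries, those with the longest lists, and 9 of the 13 libraries had none there. The 2 targets of Nkx2-1 were called more often but weakly. Lhx8 (ENSMUSG00000096225.7, chr3:154306294-154330659, minus strand) had a promoter fold of 2.46 in control brainstem 61, 2.19 and 2.42 in K27M brainstem 41 and 59, 2.43 in control telencephalon 61, and 2.26 and 2.43 in K27M telencephalon 51 and 61. These 6 libraries included the 5 with the longest peak lists, and the sixth ranked 8th in length. At equal list length Lhx8 was left in none.

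Lhx6 (ENSMUSG00000026890.19, chr2:36081953-36105408, minus strand) was called in 7 libraries. Its promoter fold was 2.62 and 2.45 in control brainstem 59 and 61, 2.16 in K27M brainstem 41, 2.29, 2.59 and 2.51 in control telencephalon 51, 59 and 61, and 2.03 in K27M telencephalon 51. It was thus called in 5 of 6 control and 2 of 7 K27M libraries, and these included the 4 longest lists as well as the shortest of all, control telencephalon 59. The 2 K27M libraries with the peak had the 2 longest K27M lists, and the part of list length in the difference between genotypes was not tested. The 2 K27M values were the lowest of the 7. Yet all 7 peaks were weak, with percentiles from 0.842 to 21.8. At equal list length only control telencephalon 59, whose list was not shortened, kept the gene.

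Detection by region and by genotype was tested by Fisher's exact test, two-sided, over the 1816 genes called in 5 to 8 libraries, adjusted over all of them by the Benjamini-Hochberg method. Libraries are cultures of pooled pups, so a p-value rests on differences between libraries and not between pups. Fisher's test treats the libraries as independent and ignores that culture numbers recur across groups. Of the 8 factors only Lhx6 and Lhx8 could enter. Of the tested genes 0% passed an adjusted p of 0.05 by region and 0% by genotype, while 39 and 22, respectively, had an unadjusted p below 0.05. The smallest Fisher p possible with 6 against 7 libraries is 0.000583, so no single gene could pass this adjustment alone. By region Lhx6 stood at 3 of 6 brainstem against 4 of 7 telencephalon libraries (Fisher's exact p = 1, adjusted p = 1). By genotype its 5 of 6 control against 2 of 7 K27M libraries gave p = 0.103 and an adjusted p of 1 in the same exact test. Lhx8 stood at 3 of 6 against 3 of 7 by region (exact p = 1), and at 2 of 6 control against 4 of 7 K27M libraries by genotype (exact p = 0.592, adjusted p = 1). Neither gene passed in either contrast.

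Fold was compared with limma on log2 fold, centred on the median of each library over the 11486 genes called in all 13. Culture number was a block, so these p-values rest on the spread within culture numbers. By region 0.0435% of the 11486 genes passed an adjusted p of 0.05, by genotype 0%, and for the interaction of both 0%. The unadjusted p was below 0.05 in 595, 510 and 433 genes, respectively. Dlx2 averaged a fold of 2.70 ± 0.096 (SD, n = 6) in brainstem- and 2.75 ± 0.2 (SD, n = 7) in telencephalon-derived OPCs. Its centred difference of brainstem minus telencephalon was −0.09 on the log2 scale (95% interval −0.23 to 0.06, limma adjusted p = 0.975). Between genotypes Dlx2 averaged 2.69 ± 0.218 (SD, n = 6) in control and 2.76 ± 0.0819 (SD, n = 7) in K27M, a difference of 0.01 (−0.14 to 0.17, limma adjusted p = 1).

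Gsx1 averaged a fold of 2.79 ± 0.21 (SD, n = 6) in brainstem and 2.73 ± 0.0718 (SD, n = 7) in telencephalon. The centred log2 difference was −0.05 by region (95% interval −0.22 to 0.11, limma adjusted p = 0.983) and −0.03 for K27M minus control (−0.21 to 0.14, limma adjusted p = 1). The uncentred means and the centred difference by region had opposite signs for Gsx1, and both were small against the spread. The interaction, the genotype difference in one region minus that in the other, was 0.10 (−0.20 to 0.40) for Dlx2 and 0.01 (−0.33 to 0.35) for Gsx1, with a limma adjusted p of 1 for each. The intervals leave room for differences of up to about 0.4 on the log2 scale in the interaction and about 0.2 in either main contrast.

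Dlx1 and Dlx6 were each missing from control brainstem 59. They entered a further limma fit over the 15599 genes called in at least 10 libraries, in which the missing library was dropped for that gene. No peak was called in that library, so its fold may be low. Dropping it may raise the control and brainstem means, and by how much was not tested. In that fit 0.0385% of genes passed by region and 0% by genotype, and 4.53% had an unadjusted p below 0.05 by genotype. Dlx1 averaged 3.04 ± 0.357 (SD, n = 5) in control and 2.70 ± 0.323 (SD, n = 7) in K27M, and the centred log2 difference of K27M minus control was −0.19 (95% interval −0.36 to −0.01). Its unadjusted limma p was 0.0389 and its adjusted p 0.999, and values of the 2 genotypes overlapped. By region the Dlx1 difference was −0.11 (−0.27 to 0.05, limma adjusted p = 0.97). Dlx6 differed by −0.09 (−0.26 to 0.08) by region and by −0.00 (−0.20 to 0.19) by genotype, with a limma adjusted p of 0.991 and 0.999.

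The number of the 8 promoters called per library was 4, 3 and 6 in control brainstem 51, 59 and 61 and 6, 5 and 4 in K27M brainstem 41, 59 and 61. It was 5, 5 and 8 in control telencephalon 51, 59 and 61, and 4, 7, 4 and 5 in K27M telencephalon 41, 51, 59 and 61. Control telencephalon 61 alone held all 8. The mean was 4.67 ± 1.21 (SD, n = 6) in brainstem and 5.43 ± 1.51 (SD, n = 7) in telencephalon, and 5.17 ± 1.72 (SD, n = 6) in control and 5.00 ± 1.15 (SD, n = 7) in K27M. Of all protein-coding genes, 44.25% to 63.78% had a promoter peak in a library, the lowest share being that of control telencephalon 59. This share averaged 58.75% in brainstem, 57.83% in telencephalon, 56.86% in control and 59.46% in K27M. Peak lists held 16879 to 52466 peaks, and the 4 libraries with at least 6 of the promoters had the 4 longest lists. At equal list length the count per library fell to between 1 and 5. The value of 5 belonged to control telencephalon 59, whose list sets that length and was therefore not shortened, and the other 12 libraries held 1 to 3. Read depth is unknown for every library, so the part of depth in these counts was not tested.

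Around the genes, overlapping peaks from different libraries (1 bp sufficed) were combined into merged peaks. The 6 windows, each a gene or pair with 50 kb on either side, held 46 merged peaks. Of these, 6 recurred in every library and 19 had been called once. Over the genome, 13.11% of 99746 merged peaks recurred in every library, close to the share in the windows. Merged peaks per 100 kb ran from 3.81 for Nkx2-1 to 9.68 for Dlx2, with a median of 6.12 over protein-coding genes. Nkx2-1 had fewer than most genes (29.5% of protein-coding genes were lower) and Dlx2 more (85% were lower). The Dlx windows were thus comparatively dense in merged peaks and the Nkx2-1 window sparse. Merged peaks found in every library numbered 1 around Dlx1 and around Dlx2, and 0 around Dlx5, Dlx6 and Nkx2-1. The median over protein-coding genes was 1.

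**Figure D4:**
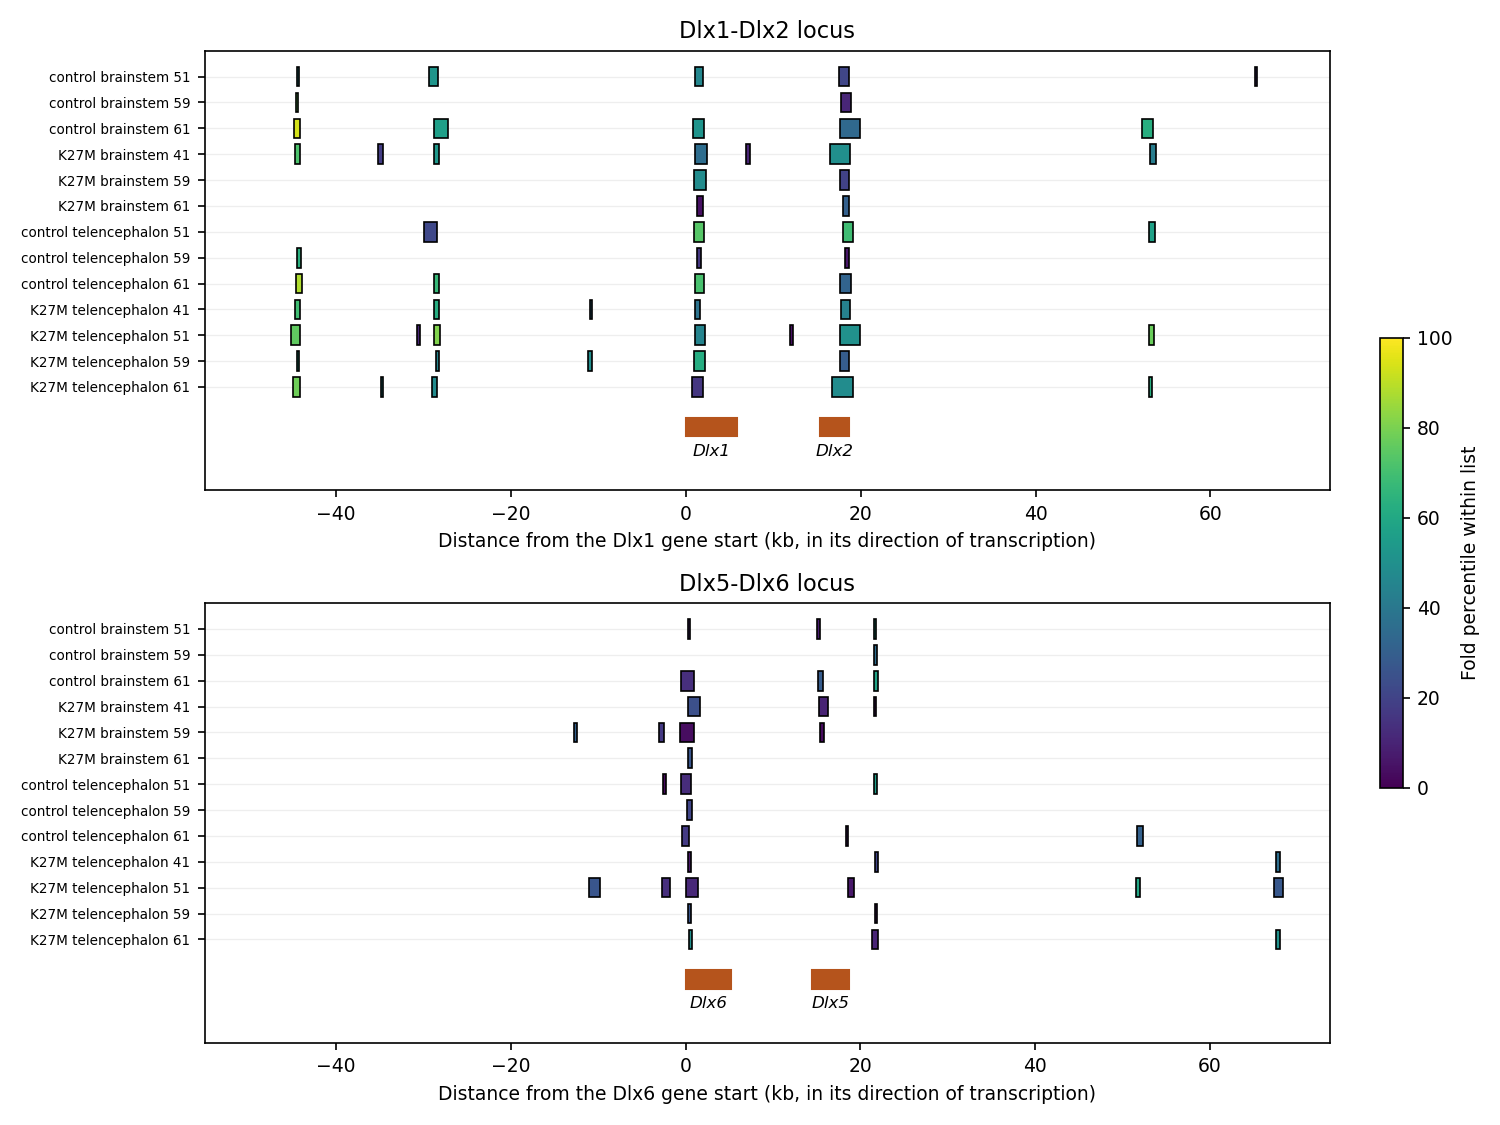
Called peaks (boxes, true width, coloured by fold percentile within list) in each of the 13 libraries (rows) around Dlx1 and Dlx2 (upper panel) and Dlx6 and Dlx5 (lower panel), by distance in kb from the Dlx1 or Dlx6 gene start, with gene bodies as orange bars. Columns of boxes stand at the Dlx1, Dlx2 and Dlx6 starts and near −44.5 and −28.6 kb from Dlx1. The stretch between the genes holds 2 boxes for Dlx1 and Dlx2 and 0 for Dlx6 and Dlx5.

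The stretch between the genes of each Dlx pair is known to hold enhancers that drive forebrain interneuron expression. Between Dlx1 and Dlx2 (chr2:71533982-71543407, 9426 bp) 2 peaks were called in 13 libraries, 1 in each of 2 libraries. Between Dlx6 and Dlx5 (chr6:6868569-6877804, 9236 bp) 0 peaks were called in any library. The median over protein-coding genes was 6.12 merged peaks per 100 kb, so few would be counted in stretches this short. Whether either stretch held fewer peaks than others of its length was not tested. Some peaks elsewhere in the windows were found in more libraries. A peak at −44.5 kb from the Dlx1 start (chr2:71482997-71484141, an intron of the peptidase gene Metap1d) was found in 10 libraries, with a mean fold of 3.50 ± 0.555 (SD, n = 10) and a mean percentile of 72, above that of the Dlx1 promoter. A second at −28.6 kb (chr2:71498109-71500843, also in Metap1d, overlapping an exon) was found in 9 libraries, with a mean fold of 3.06 ± 0.407 (SD, n = 9).

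By group, the −44.5 kb peak was called in 3 of 3 control and 1 of 3 K27M brainstem libraries and in 2 of 3 control and 4 of 4 K27M telencephalon libraries. Calls were thus fewest in K27M brainstem, and the difference between regions in the effect of genotype was not tested for detection. By region alone it was 4 of 6 against 6 of 7 libraries (exact p = 0.559, adjusted p = 1). This Fisher's exact test covered the 26619 merged peaks called in 3 to 10 libraries, of which 0% passed by region and 0% by genotype. By genotype alone the −44.5 kb peak was in 5 of 6 control and 5 of 7 K27M libraries. At equal list length that peak was left in 5 libraries. At −2.9 kb from the Dlx5 start, just outside its promoter, an intergenic peak (chr6:6884627-6885381) was found in 8 libraries. It was called in 3 of 3 control and 1 of 3 K27M brainstem libraries and in 1 of 3 control and 3 of 4 K27M telencephalon libraries. Its test by region and by genotype over the 11706 merged peaks called in 5 to 8 libraries gave an exact p of 1 for both, and of those merged peaks 0% passed by region (276 at an unadjusted p below 0.05) and 0% by genotype (147).

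Within Dlx5, a peak over an exon at 3 kb from the start (chr6:6878404-6879667) was singled out after its values were seen. It was called in 4 of 6 brainstem libraries, 2 control and 2 K27M, and in 0 of 7 telencephalon libraries, whereas both Dlx5 promoter peaks came from telencephalon. Its folds were 2.48 and 2.73 in control brainstem 51 and 61, and 2.28 and 2.36 in K27M brainstem 41 and 59. The 4 peaks had a median percentile of 8.72 and no base shared by all, and none was left at equal list length. In Fisher's exact test by region the p of 0.021 became 1 after adjustment over 26619 merged peaks. Of those merged peaks, 382 (1.435%) had an unadjusted p below 0.05 by region. The 4 libraries with the peak had the longest brainstem lists, and the part of list length was not tested.

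Gsx1 had the most regular surroundings of the 6 loci. An intergenic peak at −33.1 kb from its start (chr5:147154778-147156394) was called in all 13 libraries, and in none was it below the 89.5th percentile of its list. Its fold was 3.96, 3.88 and 5.34 in control brainstem 51, 59 and 61, and 4.76, 4.35 and 4.09 in K27M brainstem 41, 59 and 61. In telencephalon it was 4.12, 4.13 and 4.64 in control 51, 59 and 61, and 4.10, 5.10, 4.61 and 3.92 in K27M 41, 51, 59 and 61. Every one of these values exceeded the Gsx1 promoter fold of the same library, and the peak was left in all 13 libraries at equal list length. Gsx1 is the nearest protein-coding gene, 32301 bp away, which does not show that the peak acts on it. A second intergenic peak at 36.3 kb (chr5:147223929-147226061) was also in all 13, with a mean fold of 2.76 ± 0.247 (SD, n = 13), and was left in 6 at equal length.

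**Figure D5:**
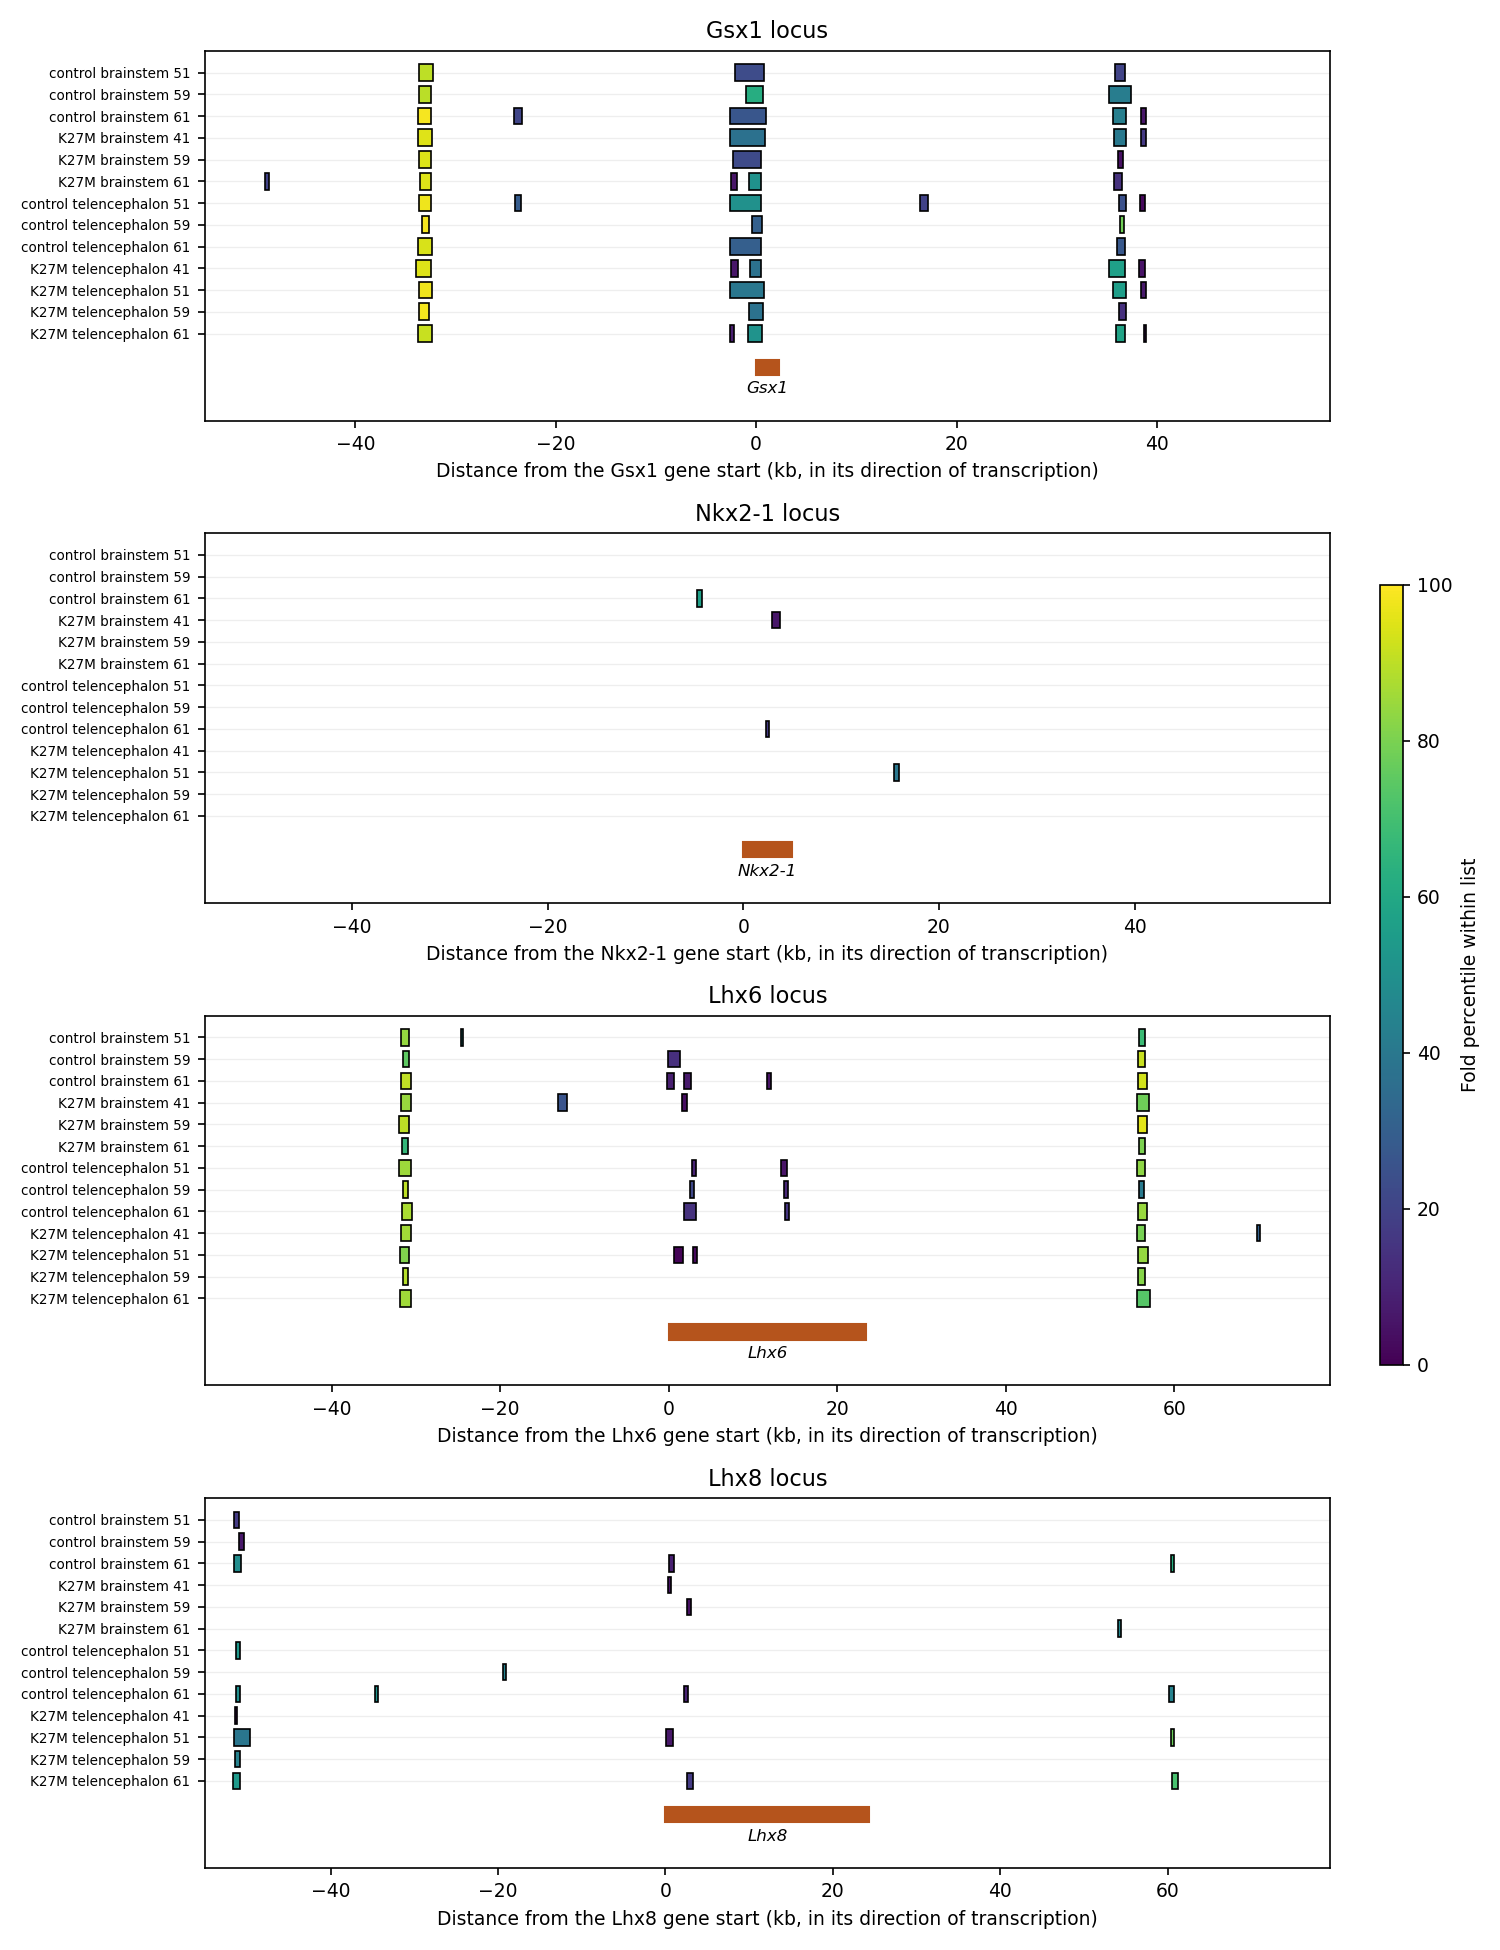
Called peaks (boxes, true width, coloured by fold percentile within list) in each of the 13 libraries (rows) around Gsx1, Nkx2-1, Lhx6 and Lhx8, by distance in kb from the gene start in the direction of transcription, with the gene body as an orange bar. The bright column at −33.1 kb from Gsx1 and the 2 columns that flank Lhx6, which are promoters of other genes, are present in all 13 rows, while the Nkx2-1 panel holds 4 boxes.

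Neither constant Gsx1 peak passed the limma test over the 13075 merged peaks called in all 13 libraries, of which 0.0229% passed by region, 0% by genotype and 0% for the interaction, with 854, 592 and 519, respectively, at an unadjusted p below 0.05. For the −33.1 kb peak the centred log2 difference was −0.06 by region (95% interval −0.20 to 0.08, limma adjusted p = 0.946) and −0.01 by genotype (−0.16 to 0.15, limma adjusted p = 0.999). For the 36.3 kb peak the difference of brainstem minus telencephalon was −0.16 (−0.33 to 0.01, unadjusted p = 0.0595, limma adjusted p = 0.777). A weaker neighbour at 38.6 kb (chr5:147226928-147227623) was in 6 libraries, 2 of 6 from brainstem and 4 of 7 from telencephalon (exact p = 0.592, adjusted p = 1).

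The constant peaks of the Lhx6 window belonged to other genes. Both merged peaks found there in all 13 libraries were promoters, 1 of Morn5 and Ndufa8 and 1 of Mrrf and Rbm18, with mean percentiles of 79.5 and 84.2. Within Lhx6 itself, a peak over a coding exon at 13.8 kb from the first start (chr2:36091134-36092043) was called in 3 of 3 control telencephalon libraries and in 0 of the other 10. Its folds were 2.21, 2.46 and 2.53 in cultures 51, 59 and 61 and its highest percentile was 15.4. By genotype it was in 3 of 6 control and 0 of 7 K27M libraries (exact p = 0.0699, adjusted p = 1 over 26619 merged peaks). At equal list length it was left in 1 library, control telencephalon 59, whose list was not shortened.

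The Lhx8 window held 7 merged peaks, none of them in all 13 libraries and 3 of them in 1 library, and a library had 0 to 3 peaks there. Nkx2-1 had no peak outside promoters in more than 1 library, and the one chosen by rule (chr12:56541138-56541644, −4.5 kb from the start, an exon of Gm26973) was in control brainstem 61 with a fold of 3.22.

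The centres of 3 of these merged peaks are given below, 300 bases each on the plus strand of GRCm38.p6. They are the strongest and most regular distal peak and 2 whose calls differed among groups. Neither of these 2 passed a test by region or by genotype. Capitals mark matches to the 4 motifs on either strand.
Gsx1 at −33.1 kb, chr5:147155436-147155735: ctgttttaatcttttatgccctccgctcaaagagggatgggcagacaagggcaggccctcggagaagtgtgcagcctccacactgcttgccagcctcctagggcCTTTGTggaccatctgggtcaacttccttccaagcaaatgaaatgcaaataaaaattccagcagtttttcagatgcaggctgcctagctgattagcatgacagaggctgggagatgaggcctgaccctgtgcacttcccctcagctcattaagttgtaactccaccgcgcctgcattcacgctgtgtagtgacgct
Dlx1 at −44.5 kb, chr2:71483419-71483718: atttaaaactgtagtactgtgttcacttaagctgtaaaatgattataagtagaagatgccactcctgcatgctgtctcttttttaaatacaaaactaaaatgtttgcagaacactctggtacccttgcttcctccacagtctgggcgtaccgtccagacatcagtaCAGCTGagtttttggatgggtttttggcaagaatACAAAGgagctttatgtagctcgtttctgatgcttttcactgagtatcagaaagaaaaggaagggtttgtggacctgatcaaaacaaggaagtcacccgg
Lhx6 at 13.8 kb, chr2:36091439-36091738: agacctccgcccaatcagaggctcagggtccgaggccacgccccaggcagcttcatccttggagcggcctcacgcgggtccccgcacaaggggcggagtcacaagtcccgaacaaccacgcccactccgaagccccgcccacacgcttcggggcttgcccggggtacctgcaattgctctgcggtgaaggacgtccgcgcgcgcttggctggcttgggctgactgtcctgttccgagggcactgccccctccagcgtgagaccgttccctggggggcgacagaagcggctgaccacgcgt
The Gsx1 sequence held 1 ACAAAG, the Dlx1 sequence held 1 CAGCTG and 1 ACAAAG, and the Lhx6 exon held none of the 4. Over all 46 merged peak centres of the windows, TAATTA was in 6.52%, CAGCTG in 17.4%, CAAGTG in 15.2% and ACAAAG in 15.2%, against 7.52%, 19.9%, 17.1% and 26.4% of 99647 merged peak centres in the genome.

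The wider programme was read from 45 other genes, in lists of progenitor factors, interneuron differentiation factors, GABA synthesis and transport, interneuron subtype and migration genes, noncoding partners and other Dlx genes. A promoter peak was called in all 13 libraries for 16 of them, in some for 26 and in none for 3. None of the 4 that could be tested by Fisher's exact test and none of the 16 tested by limma passed an adjusted p of 0.05 by region or by genotype, and 0 and 2, respectively, had an unadjusted p below 0.05. Over all genes tested by limma, 5.18% by region and 4.44% by genotype had an unadjusted p below 0.05.

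Of the 12 progenitor factors, 4 were called in all 13 libraries, among them Olig1, Olig2 and Meis2. Olig1 and Olig2 are also the defining factors of the oligodendrocyte lineage. The fewest calls were for Six3 (2), Sp9 (4) and Sp8 (5). Gsx2, the close relative of Gsx1, was called in 9 libraries, 2 of 6 from brainstem and 7 of 7 from telencephalon. It was picked out after its values were seen and was too frequent for the test over 5 to 8 libraries. In Fisher's exact test over the 4394 genes called in 3 to 10 libraries, 0 passed by region and 1.32% had an unadjusted p below 0.05. Gsx2 was left in 1 library at equal list length, control telencephalon 59, whose list was not shortened. The mean percentile of Gsx2 was 4.33.

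Of the 12 differentiation factors, 8 were called in all 13 libraries, among them Sox6 and Prox1, which cells of the oligodendrocyte lineage also use. Npas1 was called in none. In the group of 4 genes for GABA synthesis and transport, Gad1, which makes GABA, was in 12 libraries and Gad2 in 8. Slc32a1, the vesicular transporter, was in 3, all from brainstem, with a mean percentile of 14.8, and in 0 at equal list length. Fisher's exact test over the 4394 genes called in 3 to 10 libraries, among them Slc32a1, gave 0 calls by region. Among 13 subtype and migration genes, Cxcr4, Erbb4 and Nrp1 were in all 13, Sst in 2 and Vip in 0. The noncoding partners Dlx1as and Dlx6os1 were in 12 and 9 libraries through peaks shared with Dlx1 and Dlx6, and of the other Dlx genes Dlx3 was in 3 and Dlx4 in 0.

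The label of the cells was checked against 5 promoters each of 5 cell types. Of the OPC markers, Pdgfra, Olig1, Olig2 and Sox10 were called in all 13 libraries and Cspg4 in 3. Markers of other cells were called too, namely 3 of 5 neuronal (Tubb3, Snap25, Syt1) and 3 of 5 astrocyte markers (Gfap, Slc1a2, Gja1) in all 13, whereas of the microglial and endothelial markers 0 were in all 13 and 2 of each 5 were in none, but P2ry12 of microglia was in 12 and Flt1 of endothelium in 11. The number of neuronal markers called per library was 4 to 5 in brainstem and 3 to 5 in telencephalon, and 3 to 5 in control and 4 to 5 in K27M. The part of other cells in the calls at the 8 factors was not tested.

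Lhx6 and Lhx8 were the factors called in 3 to 10 libraries, and for these the protein-coding genes with the most similar pattern were sought, by Pearson's r of the promoter percentile over the 13 libraries with 0 for no call. For Lhx6 they were D7Ertd443e (r = 0.782), Ankrd50 (r = 0.772) and Hsd17b2 (r = 0.767). These were called in 8, 13 and 2 libraries, of which 7, 7 and 2, respectively, were shared with Lhx6. For Lhx8 they were Mctp2 (r = 0.933), Acot5 (r = 0.931) and Myh11 (r = 0.914). They were called in 5, 4 and 9 libraries, of which 5, 4 and 6, respectively, were shared with Lhx8. The libraries differ in list length, which all these genes share, and each gene was picked as the most alike among the 22028.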

How the data were processed

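Omni-ATAC libraries of 13 OPC cultures were represented by their deposited broad peak lists. The authors had trimmed reads with Trim Galore 0.6.7 and cutadapt 3.4, used BWA 0.7.17-r1188 for alignment to mm10, excluded the blacklist and called peaks with MACS2 2.2.7.1 on each library alone. The deposited fold of a peak is a ratio to the local background of its library, and this fold is not scaled between libraries. The normalised read counts that the authors compared elsewhere were not used here. The deposited −log10 p and −log10 q give its significance. The deposited score is 10 times the −log10 q without decimals (99.99% of peaks) and was used only for that check. The calling cutoff is not given in the sources used here, and the lowest −log10 q was 1.00. Sequencing depth is unknown, so no counting interval can be given.

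Groups were taken from the labels. The 8 members, the pathway lists and the markers were chosen with earlier results of these data known. Promoters came from GENCODE M21 and all coordinates are 1-based on mm10. Detection was tested by two-sided Fisher's exact tests (scipy 1.17.1, Python 3.11.15) over features called in 5 to 8 libraries, and fold by limma 3.58.1 (R 4.3.3) over features called in all 13, on centred log2 fold with region, genotype and culture number as terms. Calls required a Benjamini-Hochberg adjusted p below 0.05. Both kinds of test were tested on simulated data. All 8 members were named. By rule, the merged peak outside promoters found in most libraries of each locus was to be named, with the 3 with the smallest p by region and by genotype, and from the lists the genes with most and fewest calls. The text says where a feature was picked by its values. Some items that the rule names are not reported here. The fit over features called in at least 10 libraries was added after seeing the data.

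Culture numbers recur across groups and were used as a block, since the study accounted for matched cultures and libraries of the same number were taken here as matched. Deviations from group means correlated by 0.0807 on average in 16 pairs of libraries of the same culture and by −0.0275 in 47 pairs of different cultures.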

Additional observations from a re-analysis of the deposited data

How the results depend on the processing

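No member promoter or peak in the members' windows passed a test as reported, so the counts here are over all features. The 5 promoters called by region became 0 without centring, 2 with fold percentile, 2 at equal peak number, 2 with peaks of −log10 p of at least 6 and 0 with at least 10. Leaving out single libraries gave 2 to 4. The 3 merged peaks called by region became 0 without centring, 0 with fold percentile, 6 in the added fit over at least 10 libraries, 1 at equal peak number, 1 at a −log10 p of at least 6 and 0 at 10, and 0 to 5 when single libraries were left out. The count of merged peaks by genotype was 0, and 2 without K27M telencephalon replicate 59, so that the range was 0 to 2. The number of members called per library fell from 5.08 to 2 at equal peak number, 1.69 at a −log10 p of at least 6 and 0.308 at 10. Detection gave 0 calls under every alternative run, though in each of them no single feature could pass the adjustment alone.

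With no replicate block, 4 promoters and 4 merged peaks were called by region. With the replicate block, detection gave 0 calls, and p for Lhx6 by genotype was 0.120 by exact permutation within cultures. The differences of Dlx2 and Gsx1 in fold stayed on the same side of the threshold in all alternatives run, and Dlx2 could not be fitted where it was not called in every library. The unknown depth limits every absence of a call. With 6 against 7 libraries the smallest Fisher p is 0.000583.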
